A study of Caenorhabditis elegans with 2 samples.

Results

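In chromatin immunoprecipitation sequencing (ChIP-seq) of the transcription factor ELT-3 in Caenorhabditis elegans larvae, 383 of the 1500 strongest regions of the pooled peak list lay at promoters on autosomes. The regions were selected on the authors' pooled signal and on the position of their summit, so their signal and their nearness to genes are given here as a description. The summit had to lie between 1000 bp upstream and 200 bp downstream of the annotated 5′ end of a protein-coding gene, called a host gene below. The 383 promoter regions made up 25.5% of the 1500 (Wilson 95% interval 23.4 to 27.8%), and the whole pooled list held 21761 regions. Of the other strong regions, 790 lay elsewhere on the autosomes, 475 of them within protein-coding genes and 315 between them, and 327 lay on the X chromosome. The intervals in the text cover counting error over regions only.

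The study used whole larvae of the L3 stage, labelled as of mixed sex, of strain OP75. All animals carry the unc-119(ed3) mutation on chromosome III and the integrated transgene wgIs75, which makes an eGFP-tagged ELT-3. There were 2 biological replicates with 1 library each, in 1 group, so no conditions were compared. The antibody is labelled elt-3 and the experiment is described as directed at the fusion, and which part of the fusion the antibody recognised was not stated. The labels do not name the promoter or the cells that drive the transgene, and they name a control experiment that was not used here. Read depth was not given, so no region has an interval of its own. The libraries ranked the promoter regions differently, and the motif differences that passed a test in the pooled list did not pass when the rule was applied to replicate 2 alone, so values by replicate are given beside the motif tests.

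ELT-3 is a zinc-finger factor of the GATA family, made mainly in the epidermis (hypodermis), the tissue that secretes the cuticle. GATA factors bind short sites with the core letters GATA, here searched as WGATAR, in which W stands for A or T and R stands for A or G. In ChIP-seq a region's signal measures how much DNA was recovered with the protein. It does not show whether the protein touches that DNA itself or through other proteins, or whether the gene nearby responds.

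Sequences around the summits show the motifs that the results turn on. Each is the window that reaches 50 bp to either side of the summit, read from the WBcel235 assembly (ce11) on the plus strand, and written 5′ to 3′. Windows that touched an annotated untranslated region, and those of 1 of the autosomes, are not printed. The first set holds the 6 strongest such windows with WGATAR and the window at gex-3, 1 of the 3 regions with 4 matches each, and capitals mark WGATAR on either strand. C28H8.2 and tdo-2 share 1 window because they form a divergent pair, meaning that they are transcribed away from each other.
F45D3.4 (chrV:12553401-12553501): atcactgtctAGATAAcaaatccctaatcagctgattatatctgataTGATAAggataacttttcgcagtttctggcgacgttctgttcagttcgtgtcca
F16G10.14 (chrII:2399929-2400029): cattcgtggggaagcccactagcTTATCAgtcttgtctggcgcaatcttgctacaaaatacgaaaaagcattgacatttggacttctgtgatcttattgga
dmd-7 (chrV:6246624-6246724): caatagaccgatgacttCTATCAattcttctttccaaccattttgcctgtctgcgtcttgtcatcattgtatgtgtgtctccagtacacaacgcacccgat
C28H8.2 and tdo-2 (chrIII:5920159-5920259): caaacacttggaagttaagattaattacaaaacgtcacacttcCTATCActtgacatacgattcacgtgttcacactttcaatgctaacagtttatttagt
C14A4.9 (chrII:10599132-10599232): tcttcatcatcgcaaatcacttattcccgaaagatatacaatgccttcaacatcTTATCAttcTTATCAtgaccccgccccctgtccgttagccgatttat
C33D9.3 (chrIV:8793437-8793537): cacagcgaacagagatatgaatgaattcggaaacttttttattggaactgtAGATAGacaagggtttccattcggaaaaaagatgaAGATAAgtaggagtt
gex-3 (chrIV:12403622-12403722): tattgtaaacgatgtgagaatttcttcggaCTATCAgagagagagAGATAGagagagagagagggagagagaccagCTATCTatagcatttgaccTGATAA
The next set shows strong windows with no WGATAR, because most promoter regions had none. It holds the 4 strongest, the next strong windows at divergent pairs, and sec-61.G and jun-1, which were picked for their GAGAGA after the values were seen. Capitals mark letters in any of the 17 6-mers found more often at the summits than beside them.
cdc-48.1 (chrII:10563520-10563620): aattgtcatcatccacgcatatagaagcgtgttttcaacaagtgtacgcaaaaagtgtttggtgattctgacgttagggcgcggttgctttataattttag
rpl-3 (chrIII:3867521-3867621): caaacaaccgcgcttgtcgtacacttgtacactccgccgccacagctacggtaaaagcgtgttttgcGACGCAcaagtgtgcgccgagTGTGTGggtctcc
Y17G9B.5 and rpl-20 (chrIV:4750014-4750114): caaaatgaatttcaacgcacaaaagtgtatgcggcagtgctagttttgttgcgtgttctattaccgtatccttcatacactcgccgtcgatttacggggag
rpl-15 and K11H12.8 (chrIV:654874-654974): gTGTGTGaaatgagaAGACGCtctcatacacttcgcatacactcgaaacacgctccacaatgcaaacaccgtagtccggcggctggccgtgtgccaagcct
ska-3 and rps-12 (chrIII:5679092-5679192): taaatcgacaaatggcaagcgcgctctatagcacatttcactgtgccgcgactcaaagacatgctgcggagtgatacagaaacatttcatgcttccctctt
rpl-12 and lin-54 (chrIV:13240659-13240759): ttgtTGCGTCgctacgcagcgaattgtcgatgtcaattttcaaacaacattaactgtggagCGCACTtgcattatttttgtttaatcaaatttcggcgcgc
set-16 and drr-2 (chrIII:13643698-13643798): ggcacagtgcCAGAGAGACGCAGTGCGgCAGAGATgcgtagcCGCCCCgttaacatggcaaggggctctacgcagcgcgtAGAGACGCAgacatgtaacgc
sec-61.G and F32D8.13 (chrV:10897331-10897431): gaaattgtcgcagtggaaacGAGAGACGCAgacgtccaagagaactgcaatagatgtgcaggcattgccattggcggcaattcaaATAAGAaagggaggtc
jun-1 (chrII:9112936-9113036): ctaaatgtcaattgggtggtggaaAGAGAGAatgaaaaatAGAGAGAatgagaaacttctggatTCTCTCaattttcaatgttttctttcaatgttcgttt

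Among these windows, cdc-48.1, Y17G9B.5 with rpl-20, and ska-3 with rps-12 held none of the 17 6-mers. The window between set-16 and drr-2 held 10 of them. That window had a GC content of 62.4%, against 39.6% at the median over all promoter regions.

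The promoter regions were described by the genes they face. They had 452 host genes, which is 2.62% of the 17242 protein-coding genes on the autosomes. A single host gene was found for 304 regions, 2 for 77 and 3 for 2. Divergent pairs accounted for 74 regions (19.3%, 15.7 to 23.6%), and 5 regions had several hosts that were not divergent. Among the 3952 autosomal promoter regions ranked below the 1500 strongest, 464 lay at divergent pairs (11.7%, 10.8 to 12.8%), and the difference was not tested. In 12 cases a gene hosted more than 1 region, and 18 regions overlapped another of the 383.

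The summits lay mostly just upstream of their host genes. The median distance to the nearest host 5′ end was 250 bp, with an upper quartile of 522 bp and a range of 1 to 995 bp. Of the 383 summits, 43 lay downstream of the nearest 5′ end, 58 lay up to 100 bp upstream, and 91 lay beyond that up to 250 bp. A further 91 lay up to 500 bp upstream and 100 lay farther out. Most summits, 277 (72.3%), were between protein-coding genes, while 34 were in introns, 27 in 3′ UTRs, 24 in coding exons and 21 in 5′ UTRs of annotated genes. The gap between the 5′ ends of the divergent pairs had a median of 611 bp, and 66 of the 74 summits lay inside it. Divergent summits were a median of 158 bp from a 5′ end, and summits with 1 host gene were 294 bp away. A divergent region has 2 host 5′ ends to be near, so these distances were not compared by a test.

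**Figure D1:**
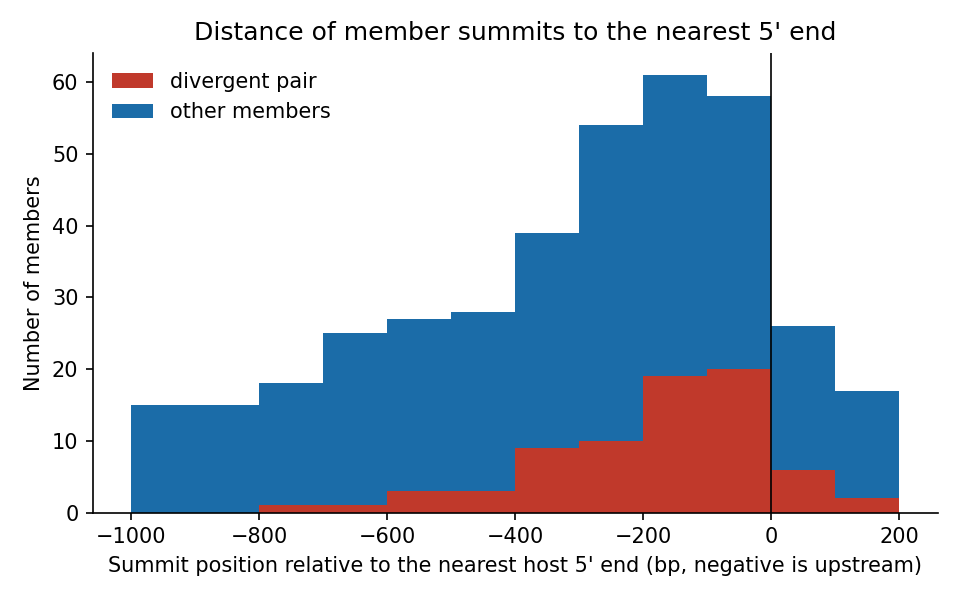
Position of the 383 promoter summits relative to the nearest host 5′ end (x axis, bp, negative is upstream, 100 bp bins) against the number of regions (y axis), with divergent pairs in red stacked below the others in blue. The counts are highest in the 200 bp upstream of the 5′ end, and 43 summits lie downstream of it.

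The 20 strongest promoter regions had pooled signals of 71.3 to 134, in units whose scaling was not given, against a median of 36.6 over the 383. The strongest was at cdc-48.1, which encodes an AAA ATPase that extracts ubiquitinated proteins (WBGene00007352; chrII:10563392-10563747, summit 163 bp upstream). Its pooled signal was 134, with 86.6 in replicate 1 (rank 4 of that list) and 44.0 in replicate 2 (rank 13). The next, at F45D3.4, an uncharacterised gene, had a pooled signal of 132 and was rank 1 in replicate 1, with a signal of 95.2. Replicate 2 had no summit within 100 bp of it, although a region of rank 29 in that list overlapped it.

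Genes of the ribosome stood at 6 of the 20 strongest promoter regions. The region upstream of rpl-3, a protein of the large ribosomal subunit, had a pooled signal of 125. Its replicate signals were 75.5 in replicate 1 (rank 11) and 48.4 in replicate 2 (rank 3). The region between rpl-20 and Y17G9B.5, annotated as a mitochondrial ECSIT-type protein, had 118, with 80.6 in replicate 1 (rank 7) and 38.5 in replicate 2 (rank 26). Both libraries therefore placed these regions near the top of their lists. The region between tasp-1, a threonine aspartase homologue, and K01G5.10 had 76.3 in replicate 1 (rank 10) and 36.1 in replicate 2 (rank 35), with its summit 2 bp upstream of the nearer 5′ end.

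The other strong regions faced genes of varied function. F16G10.14, a gene for a DUF281 domain protein, had a signal of 97.2 and had its summit 995 bp upstream, near the outer limit of the promoter window. Signals were 94.5 between rpl-15 and K11H12.8, 91.7 at tos-1, 91.2 between rps-12 and the kinetochore gene ska-3, 91.1 at the uncharacterised H41C03.3 and 90.5 at rpl-35. The gene egg-5, for a pseudophosphatase needed at egg activation, hosted 2 overlapping regions with pooled signals of 84.9 and 83.9. The stronger of the egg-5 regions was rank 16 in replicate 1 with no summit within 100 bp in replicate 2, although the region of rank 5 there overlapped it, and the other was rank 5 in replicate 2 and rank 370 in replicate 1. The pooled signal was 84.4 at dmd-7 (a DM domain factor), 84.3 between rpl-12 and lin-54 (a DRM complex subunit), and 80.9 at F26A3.4 (a tyrosine phosphatase). The last of the 20 were his-37, a histone gene, with 74.6, H12C20.7 with nhr-68, a nuclear hormone receptor, with 73.9, and C28H8.2 with tdo-2, tryptophan dioxygenase, with 72.8. The 20th was ZK6.8, an UNC93-like gene, with 71.3.

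The weakest promoter regions lay close to the limit set by rank. Just inside it were atg-18, an autophagy gene, with a signal of 29.99, jhdm-1 with 29.99, ugt-58 with 29.98, otpl-6 with 29.97 and F17C11.26 with 29.91. Just outside were phm-2 with 29.90, D1007.3 with 29.83, ify-1 and rpl-22 with 29.79, Y57G11C.3 and mrps-7 with 29.77, and Y65B4BM.3 with 29.68. These signals differ by little, so genes near the limit are separated by a small margin.

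The rank in each replicate's own list was compared for every promoter region. The nearest summit within 100 bp was found for 339 of the 383 in replicate 1 (88.5%) and for 329 in replicate 2 (85.9%). The median rank was 850 in replicate 1 and 1791 in replicate 2. In replicate 1, 219 regions (57.2%, 52.2 to 62.0%) were within the 1500 strongest of that list, and in replicate 2, 147 (38.4%, 33.6 to 43.3%) were. By this match, 72 of the 383 (18.8%, 15.2 to 23%) were among the 1500 strongest in both, against 109 of 790 other autosomal regions (13.8%, 11.6 to 16.4%). Replicate 1 alone placed 147 of them there, replicate 2 alone placed 75, and 89 reached it in neither. Some of these 89 were still overlapped by a strong region, as at nhr-43, where the overlapping region had rank 704 in replicate 1. Counted by any overlap, 26.4% of the 383 (22.2 to 31.0%) were overlapped by the 1500 strongest of both replicates. The share was 19.4% (16.8 to 22.3%) for the 790 other autosomal regions.

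Signals in the libraries were barely related across these regions. Over the 287 regions with a summit in both lists, the Pearson correlation of log2 signal between the replicates was 0.14 and Spearman's rho was -0.01. The pooled signal followed replicate 1 more closely (r = 0.79, rho = 0.73) than replicate 2 (r = 0.61, rho = 0.50). Since pooled signal chose the regions, a region with less signal in 1 library needed more in the other, so these values describe the set and not how well the libraries match in general. Of the 383 regions, 83 were in the authors' IDR list (irreproducible discovery rate, a method built on ranks shared by replicates), which is 29.6% of its 280 regions. That list held exactly the 280 strongest pooled regions, so here it acts as a higher limit on pooled signal. It included the regions at pdi-3 and bag-1, which no region of replicate 2 overlapped.

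**Figure D2:**
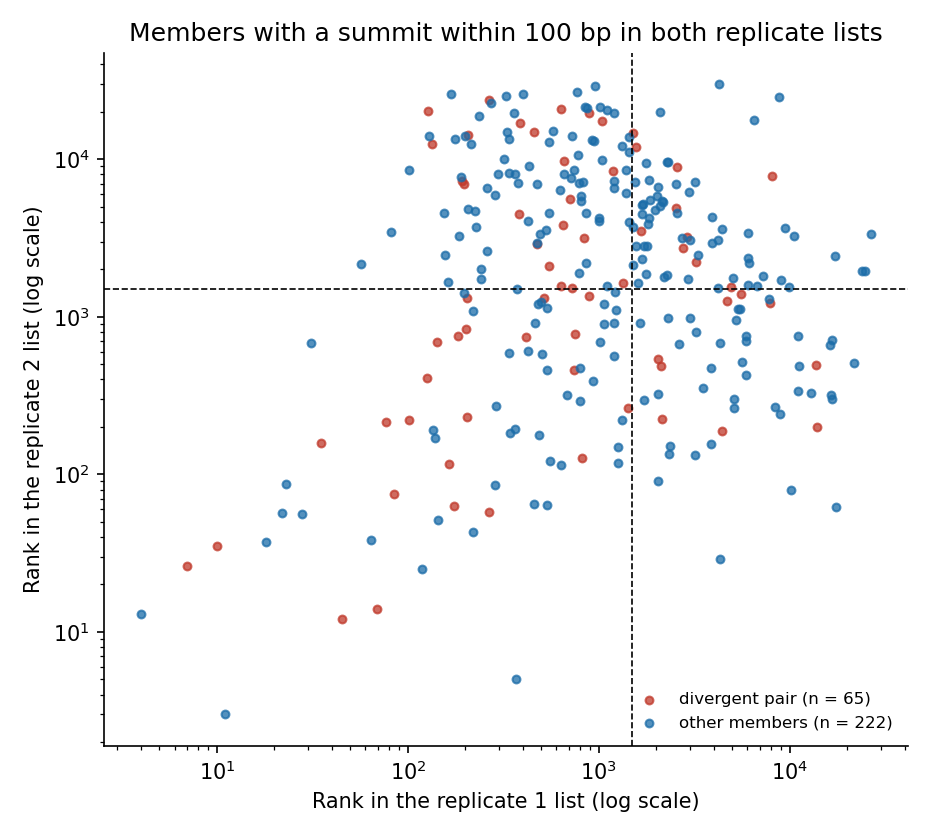
Rank in the replicate 1 list (x axis, log scale) against rank in the replicate 2 list (y axis, log scale) for the 287 promoter regions with a summit in both lists, with divergent pairs in red and other regions in blue. Dashed lines mark rank 1500, and only points at lower left are among the 1500 strongest of both lists.

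Within the first 150 ranks of both replicate lists were 14 promoter regions. They faced cdc-48.1, rpl-3, rpl-20 with Y17G9B.5, tasp-1 with K01G5.10, F16G10.14, rpl-15 with K11H12.8, tos-1, rpl-35, dmd-7, rps-12 with ska-3, nhr-68 with H12C20.7, H41C03.3, F26A3.4, and sec-61.G with F32D8.13. The weakest of them by pooled signal, at sec-61.G, a subunit of the protein translocon, had 70.9, with rank 144 in replicate 1 and rank 51 in replicate 2. Of the 14, 5 lay at divergent pairs and 3 held WGATAR within 50 bp of the summit (21.4%, 7.57 to 47.6%), an interval that includes the 29.8% of all promoter regions.

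The regions were also counted by the libraries in which they ranked, with no test. Divergent pairs made up 24 of the 72 regions strong in both libraries (33.3%), 28 of the 147 strong in replicate 1 only (19.0%), 9 of the 75 strong in replicate 2 only (12%) and 13 of the 89 strong in neither (14.6%). Chromosome I held 14 of the 72 (19.4%), 39 of the 147 (26.5%), 36 of the 75 (48%) and 25 of the 89 (28.1%). The share with WGATAR stayed between 28.6 and 31.5% in all 4 classes.

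The GATA motif was found within 50 bp of the summit in 114 promoter regions (29.8%, 25.4 to 34.5%). It was in 79 of the equally long windows placed 500 bp to the right of the summits (20.6%, 16.9 to 25%). The motif was at the summit alone in 86 regions and beside it alone in 51, and the exact McNemar test (two-sided) gave p = 0.00352, adjusted p = 0.00528 over 3 comparisons. Over all 21761 pooled regions 23.9% had the motif, and of windows centred 250 bp upstream of every autosomal gene 21.7% did. Most promoter regions therefore lacked WGATAR at the summit.

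The difference of 9.14 percentage points did not pass the threshold of 0.05 in the exact McNemar test under several other choices. Applying the rule to replicate 2 alone gave 6.51 points (exact test, adjusted p = 0.240), and to replicate 1 alone gave 14.6 points (adjusted p = 5.16e-06). By the same exact test the difference was 4.51 points (adjusted p = 0.261) with a promoter window of 500 bp upstream to 100 bp downstream, 4.70 points (adjusted p = 0.226) with GATAA in place of WGATAR, 14.5 points (adjusted p = 0.0864) in the 83 regions of the IDR list, and 7.06 points (adjusted p = 0.0785) without chromosome I. The summit windows had a median GC content of 39.6% and the windows beside them 35.6%. Coding exons were touched by 13.6% of the summit windows and 43.9% of the windows beside them. The part of GC content and coding sequence in the difference was not tested.

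Matches were spread over the window. The 114 regions held 167 matches, 97 of them within 25 bp of the summit and the others up to 50 bp away. A single match was found in 78 regions, 2 or more in 36, and 3 or more in 14. The most, 4 each, were at gana-1, which encodes an alpha-galactosidase, spe-54 and gex-3, a gene of the WAVE complex, whose window is printed above. The region at gana-1 had a pooled signal of 62.2 and ranks 287 and 85 in replicates 1 and 2. The regions between hgo-1, homogentisate dioxygenase, and spe-46, and at T07D3.9 had 3. By pooled rank within the set, 30.7% of the regions of rank 3 to 433 had the motif (23.4 to 39.2%), 30.7% of rank 435 to 932 and 27.9% of rank 937 to 1498 (20.9 to 36.2%).

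**Figure D3:**
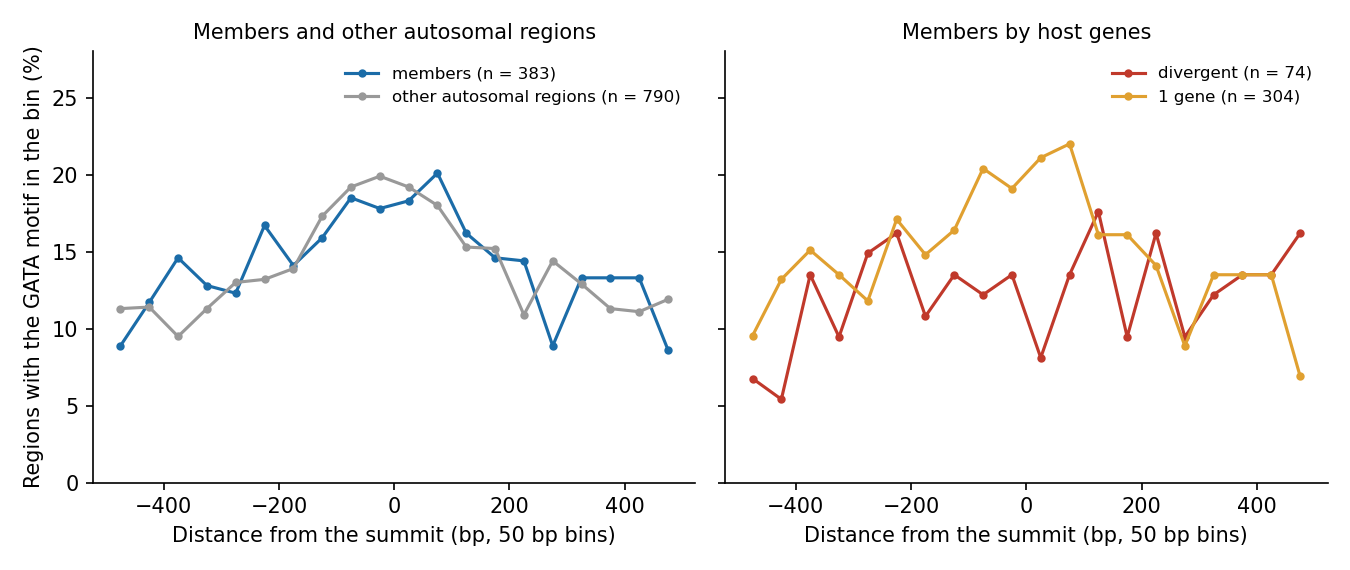
Share of regions with the GATA motif (y axis, %) in 50 bp bins by distance from the summit (x axis, bp). On the left, promoter regions (blue) and other autosomal regions (grey) are both highest within about 100 bp of the summit. On the right, regions at divergent pairs (red) have 13.5% in the bin just left of the summit and 8.11% in the bin just right of it, and regions at 1 gene (yellow) have 19.1% and 21.1% there.

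Promoter regions were set against the other autosomal regions among the 1500 strongest. WGATAR was in 114 of 383 promoter regions (29.8%) and in 256 of 790 others (32.4%, 29.2 to 35.7%). The difference of -2.64 points did not pass Fisher's exact test (two-sided; odds ratio 0.884, 95% interval 0.671 to 1.16; adjusted p = 0.384). In the others the share was 29.3% within genes and 37.1% between genes. Under the rule applied to replicate 1 alone the difference was -7.19 points (exact test, adjusted p = 0.0242), and to replicate 2 alone 0.811 points (adjusted p = 1.00), so the direction turned with the library. In the IDR list it was -18.9 points (exact test, adjusted p = 0.0284).

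Regions at divergent pairs had the motif less often than regions at 1 gene. WGATAR was in 10 of 74 divergent regions (13.5%, 7.51 to 23.1%) and in 104 of 304 regions with 1 host gene (34.2%, 29.1 to 39.7%). The difference was -20.7 points, with a conditional odds ratio of 0.301 (95% interval 0.132 to 0.622) and adjusted p = 0.00110 in the two-sided exact test of Fisher. The divergent windows were richer in GC, with a median of 45.5% against 37.6% at 1 gene. Among regions at or below the median GC of all promoter regions, 7 of 22 divergent regions (31.8%) and 73 of 184 at 1 gene (39.7%) had the motif. Above the median GC it was 3 of 52 (5.77%) and 31 of 120 (25.8%). The part of base composition in this difference was not tested further.

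The divergent difference was seen in several splits of the regions. Without ribosomal protein genes it was 8 of 62 (12.9%) against 104 of 299 (34.8%). For summits nearer to a 5′ end than the median it was 7 of 52 (13.5%) against 50 of 136 (36.8%), and farther away 3 of 22 (13.6%) against 54 of 168 (32.1%). By the rule applied to replicate 1 alone, 19 of 83 divergent regions (22.9%) and 114 of 327 at 1 gene (34.9%) had the motif, a difference of -12 points (exact test, adjusted p = 0.0484). By the rule applied to replicate 2 alone it was 16 of 57 (28.1%) and 72 of 245 (29.4%), or -1.32 points (exact test, adjusted p = 1.00). It was -16.2 points (exact test, adjusted p = 0.212) in the IDR list and -14.5 points (adjusted p = 0.195) with the narrower promoter window, which left 44 divergent regions.

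A GA repeat was also more frequent at the summits than in the windows beside them. Of 8 6-letter motifs searched on either strand, 4 were more frequent at the summits, by the exact McNemar test with Benjamini-Hochberg adjustment over the 8. GAGAGA was in 72 summit windows (18.8%, 15.2 to 23%) and in 18 windows beside them (4.70%, 2.99 to 7.31%), with adjusted p = 9.08e-09 in the exact test. Its share was 14.3% in the other autosomal regions, 6.42% over all pooled regions and 6.21% in the windows centred 250 bp upstream of all autosomal genes. At divergent pairs it was in 12 of 74 (16.2%) and at 1 gene in 57 of 304 (18.8%). The repeat is plain in the window at jun-1, which encodes an AP-1 subunit.

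The other 3 were 2 forms of the GATA site and a CG-bearing motif. The form CTTATC, which has the core on the other strand, was in 12.5% of summit windows and 5.22% of those beside (exact test, adjusted p = 0.00199). TGATAA, whose letters all match WGATAR, was in 17.2% and 9.14% (exact test, adjusted p = 0.00356). In the other autosomal regions CTTATC was in 11.3% and TGATAA in 17.3%, shares close to those of the promoter regions. ACGCAG was in 7.83% of summit windows and 2.61% of those beside (exact test, adjusted p = 0.00444), and in 4.81% of the other autosomal regions. This motif was searched because it had been seen in earlier results of these data, so its test is not independent of that choice. ACGCAG was in 14 of 74 regions at divergent pairs (18.9%) and 15 of 304 at 1 gene (4.93%), a contrast picked after the values were seen and not tested. The remaining motifs did not pass the exact test, with GGGCGG (the GC box) at 4.18% and 1.57% (adjusted p = 0.0809), TTTTTT at 31.9% and 38.6% (adjusted p = 0.0809), TATAAA (the TATA box) at 12.3% and 9.66% (adjusted p = 0.338) and CACGTG (the E-box) at 3.66% and 2.35% (adjusted p = 0.405).

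None of these motifs passed when the rule was applied to replicate 2 alone, by the exact McNemar test, where 1 of the 8 had an unadjusted p under 0.05. GAGAGA was then in 34 of 307 summit windows (11.1%) and 24 beside (7.82%), a difference of 3.26 points (exact test, adjusted p = 0.261). By the rule applied to replicate 1 alone it was in 73 of 419 (17.4%) and 25 (5.97%), a difference of 11.5 points (exact test, adjusted p = 2.14e-06). ACGCAG differed by 3.26 points with replicate 2 alone (exact test, adjusted p = 0.139) and by 11.7 points with replicate 1 alone (adjusted p = 1.53e-10), against 5.22 points in the pooled set. CTTATC differed by 3.91 points with replicate 2 alone (exact test, adjusted p = 0.139) and by 6.92 points with replicate 1 alone (adjusted p = 0.000407), against 7.31 points in the pooled set. TGATAA differed by 2.28 points with replicate 2 alone (exact test, adjusted p = 0.483) and by 10 points with replicate 1 alone (adjusted p = 8.58e-05), against 8.09 points in the pooled set. TGATAA also lost the call in the IDR list (8.43 points, exact test, adjusted p = 0.223), with the narrower promoter window (5.64 points, adjusted p = 0.135) and without chromosome I (7.06 points, adjusted p = 0.0542).

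Other choices gave a call to motifs that had none in the pooled set. By the exact McNemar test CACGTG, at 1.31 points in the pooled set, had 8.43 points in the IDR list and 3.10 points with replicate 1 alone (adjusted p = 0.0307 in each). TTTTTT, at -6.79 points, had -20.5 points in the IDR list (exact test, adjusted p = 0.00605), -10.7 points in the 1000 strongest regions (adjusted p = 0.0191), -7.36 points with the 5′ ends of all transcripts (adjusted p = 0.0436) and -7.57 points against windows 500 bp upstream (adjusted p = 0.0453). GGGCGG, at 2.61 points, had 4.18 points in windows reaching 100 bp from the summit (exact test, adjusted p = 0.0362), 2.43 points in the larger set of strongest regions tried (adjusted p = 0.0463) and 2.87 points against windows 500 bp upstream (adjusted p = 0.0426).

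**Figure D4:**
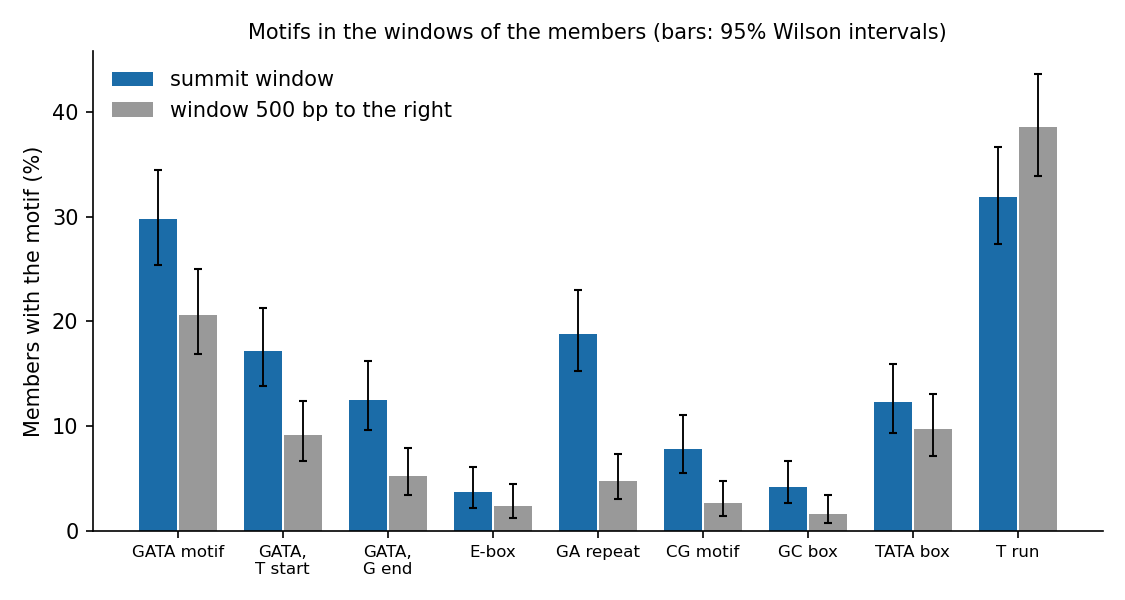
Share of the 383 promoter regions with each motif (y axis, %) in the summit window (blue) and in the window centred 500 bp to the right (grey), with 95% Wilson intervals. Pairs of bars stand for WGATAR, the GATA sites TGATAA and CTTATC, the E-box, the GA repeat GAGAGA, the CG-bearing ACGCAG, the GC box, the TATA box and the T run. The GA repeat has 18.8% at the summit and 4.70% beside it.

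A search was also made over all 6-mers, with reverse complements joined. By the exact McNemar test adjusted over all of them, 17 6-mers (0.817%) were more frequent at the summits and 9 (0.433%) were less frequent. By the exact test the lowest p among the 17 belonged to GAGAGA (adjusted p = 2.36e-06), AGAGAG (15.7% and 3.13%, adjusted p = 2.46e-06) and AGAGAC (12.8% and 2.87%, adjusted p = 9.60e-05). Next came AGAGAT (13.6% and 3.92%), CGTCTC (11% and 3.39%), AGACGC (9.40% and 2.09%), CAGAGA (11.7% and 3.66%), ATAAGA (14.6% and 5.74%) and CGCCCC (3.39% and 0). GACGCA was in 10.4% of summit windows and 2.35% of those beside (exact test, adjusted p = 0.00165). The others were CACACA (11% and 3.92%), GCGTCA (5.48% and 0.783%), ACGTGA (6.53% and 1.31%), GGTCAA (4.96% and 0.783%), AGTGCG (5.22% and 0.783%), GCACGC (3.92% and 0.261%) and CTTATC, given above. Of the 17, only CTTATC held the letters GATA on either strand. Of the 48 6-mers with GATA, 31 had a higher count at the summits. Only 5 of these had an unadjusted p under 0.05 by the exact McNemar test. The share of all 6-mers with a higher count at the summits was not counted, so the 31 have no base to be set against.

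Of the 9 that were less frequent at the summits, the lowest p belonged to CTGAAA, the reverse complement of the worm's 3′ splice site consensus TTTCAG. It was in 10.2% of summit windows and 25.3% of those beside (exact test, adjusted p = 9.67e-05), and in 11.9% of the other autosomal regions. Also less frequent were TGAGCA (1.31% and 8.36%), AGTAAA (2.35% and 10.2%), AAGTAA (2.09% and 9.14%) and TTTAAA (9.40% and 20.6%). The others were AGAGCT (0.522% and 5.22%), TGAAAA (22.5% and 36%), TCTGAA (7.31% and 16.2%) and AGGCTC (0 and 3.39%). The count of called 6-mers depended on the library, with 59 by the rule on replicate 1 alone and 0 on replicate 2 alone, where 109 had an unadjusted p under 0.05 by the exact McNemar test, against 261 in the pooled set. It was 12 without chromosome I and 3 in the IDR list.

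The host genes were counted in gene lists beside the share of all autosomal protein-coding genes, 2.62%, with no test. Among the 79 autosomal genes for ribosomal proteins, 18 (22.8%, 14.9 to 33.2%) hosted a promoter region. Among the 21 genes of 2 families of epidermal antimicrobial peptides, 6 (28.6%, 13.8 to 50%) did. Of the 145 cuticle collagen genes, 10 did (6.90%, 3.79 to 12.2%), and of the 246 nuclear hormone receptor genes, 13 (5.28%, 3.11 to 8.83%). In all, 70 of the 452 host genes were in any list. The share of all autosomal genes that are in any list was not counted, so this count has no base to be set against. A region was counted at a listed gene even where another host gene had the nearer 5′ end. For ribosomal protein genes this was so at rpl-20, rps-12, rps-23, rps-19, rps-20 and rpl-4.

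Of the 18 regions at ribosomal protein genes, 12 were at divergent pairs (66.7%, 43.7 to 83.7%), against 19.3% of all promoter regions. A region with several host genes has more chances to be counted at a listed gene, so these shares are not on the same base. The difference was not tested. WGATAR was in 2 of the 18 (11.1%, 3.10 to 32.8%), an interval that includes the 29.8% of all promoter regions. After the 6 genes named above, the next in order of signal were rps-1 and rpl-7A. The region of rps-1 had a pooled signal of 68.6, with 41.0 in replicate 1 and 25.9 in replicate 2. That of rpl-7A had 49.0, rank 127 in replicate 1 and rank 20263 in replicate 2. For ribosomal protein genes, the rule applied to replicate 1 alone found 21 regions at ribosomal protein genes and to replicate 2 alone found 12.

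At the peptide genes, 4 of 5 regions held WGATAR, beside 29.8% of all promoter regions, and the difference was not tested. These small secreted peptides are made by the epidermis and are induced by infection and wounding. The region between nlp-31 and nlp-34 had a pooled signal of 60.3 and 2 matches, with rank 267 in replicate 1 and rank 58 in replicate 2. The region of cnc-7 had a signal of 31.5 and 3 matches, cnc-2 had 31.7 and 2, nlp-27 had 30.1 and 1, and nlp-24 had 46.5 and none. The ranks in replicates 1 and 2 were 7831 and 1300 for cnc-7, 1843 and 7407 for nlp-27, and 401 and 25772 for nlp-24. A region of rank 647 in replicate 2 also overlapped that of nlp-24. The summit of cnc-2 had rank 2173 in replicate 2 and none within 100 bp in replicate 1, although a region of rank 1964 there overlapped it. All 5 regions were on chromosome V, and how many of the listed peptide genes lie there was not counted.

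Collagen genes, which encode the main structural proteins of the cuticle, had 9 regions for their 10 host genes. Of the 9, 4 held WGATAR, beside 29.8% of all promoter regions, with no test. The strongest was at col-62, with a pooled signal of 67.0, rank 164 in replicate 1 and rank 117 in replicate 2. It lay at a divergent pair, with its summit 489 bp upstream of col-62 and 87 bp upstream of C15A11.7, which is not in the collagen list. Regions with WGATAR were also at dpy-5 (signal 39.9), rol-6 (38.3) and col-93 (32.4). Those without it were at dpy-9 (36.8), between col-50 and col-51 (36.4), at col-83 (32.9), col-76 (32.8) and dpy-2 (30.4). The rank of dpy-5 was 3197 in replicate 1 and 133 in replicate 2, and that of dpy-2 was 635 in replicate 1 and 20751 in replicate 2.

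Genes that process the cuticle or regulate moulting were counted beside the same 2.62%. Of 86 genes for collagen processing, apical matrix and moulting, 4 were hosts (4.65%, 1.82 to 11.4%). They were dpy-31, a procollagen protease (signal 57.2), pdi-3, a protein disulphide isomerase (53.1), nas-36, an astacin protease needed for moulting (41.8), and noah-1, an apical matrix protein (31.3). The region of pdi-3 was shared with ubql-1, whose 5′ end was nearer to the summit (536 bp against 639 bp). Of 18 epidermal fate and moulting regulators, 2 were hosts (11.1%, 3.10 to 32.8%), the transcription factor genes myrf-1 (49.2) and grh-1 (36.4). WGATAR was in 2 of the 5 regions at genes of the first list and in neither region at these regulators, with no test. Of 72 hedgehog-related and patched-related genes none was a host, which allows up to 5.07% by the Wilson interval.

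Lists of other housekeeping genes gave shares of 0 to 7.27%, beside 2.62% of all autosomal genes. Of 68 genes for translation factors and tRNA synthetases, 4 were hosts (5.88%, 2.31 to 14.2%), namely iff-2 (63.9), eef-1G (46.3), cars-1 (45.7) and eef-1A.1 (43.0). Of 55 chaperone genes, 4 were (7.27%, 2.86 to 17.3%), the TRiC subunits cct-1 (49.6) and cct-8 (36.9) and the co-chaperones dnj-19 (37.7) and dnj-24 (31.3). Of 40 proteasome and CDC-48 genes, cdc-48.1 and rpt-3 (32.8) were hosts (5%, 1.38 to 16.5%). Single hosts in other lists were vha-8 of the V-ATPase (signal 54.4; 5.88% of 17 genes) and cox-5A of the respiratory chain (signal 55.4; 2.86% of 35 genes). The splicing list of 41 genes had snr-4 (42.8) and prp-40 (34.2), or 4.88%. None of these regions held WGATAR within 50 bp of the summit, beside 29.8% of all promoter regions, with no test. They were 4 regions each for the translation and chaperone lists, 3 for splicing and 2 for proteasome and CDC-48. The V-ATPase and respiratory chain lists had 1 each. The region of dnj-19 was also that of the receptor gene nhr-47, with its summit 549 bp from the dnj-19 5′ end and 153 bp from that of nhr-47. Host genes with a nearer 5′ end also shared the regions of eef-1A.1 (rfc-4), cct-1 (mig-5), cct-8 (Y55F3AR.2) and vha-8 (C17H12.2). No actin or tubulin gene of 15 was a host, which allows up to 20.4%.

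Stress genes and receptors completed the lists. The stress list of 28 genes had wdr-23, whose product restrains the oxidative stress factor SKN-1 (56.4), and osm-7, a gene of the osmotic response (37.2). These hosts were 7.14% of the list (1.98 to 22.6%), an interval that includes the 2.62% of all autosomal genes. None of the 3 regions at these stress genes held WGATAR. The nuclear hormone receptors, ligand-binding transcription factors, were led by nhr-68 (73.9), nhr-80 (57.5), nhr-97 (43.8), nhr-119 (41.8), nhr-47 (37.7), nhr-43 (37.5), nhr-207 (34.7) and nhr-258 (33.7). Host genes with a nearer 5′ end shared the regions of nhr-68 (H12C20.7) and nhr-80 (H10E21.1). Of the 14 regions at the receptor genes, 6 held WGATAR and 4 were divergent, beside 29.8% and 19.3% of all promoter regions, with no test. The divergent shares are again not on the same base, since regions with several host genes have more chances to be listed.

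Marker genes of other tissues were counted in short lists. None of 12 intestine, 11 body wall muscle, 11 pharynx or 31 neuron marker genes was a host, and of 68 germline and sperm marker genes cpg-7, a chondroitin proteoglycan gene, was (1.47%, 0.260 to 7.87%). The intervals of these 5 lists all include the 2.62% of all autosomal genes, and genes outside the marker list that act in germ cells, such as egg-5, were also hosts. The Wilson interval of a count of 0 reaches 24.2% for the intestine list and 11% for the neuron list.

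**Figure D5:**
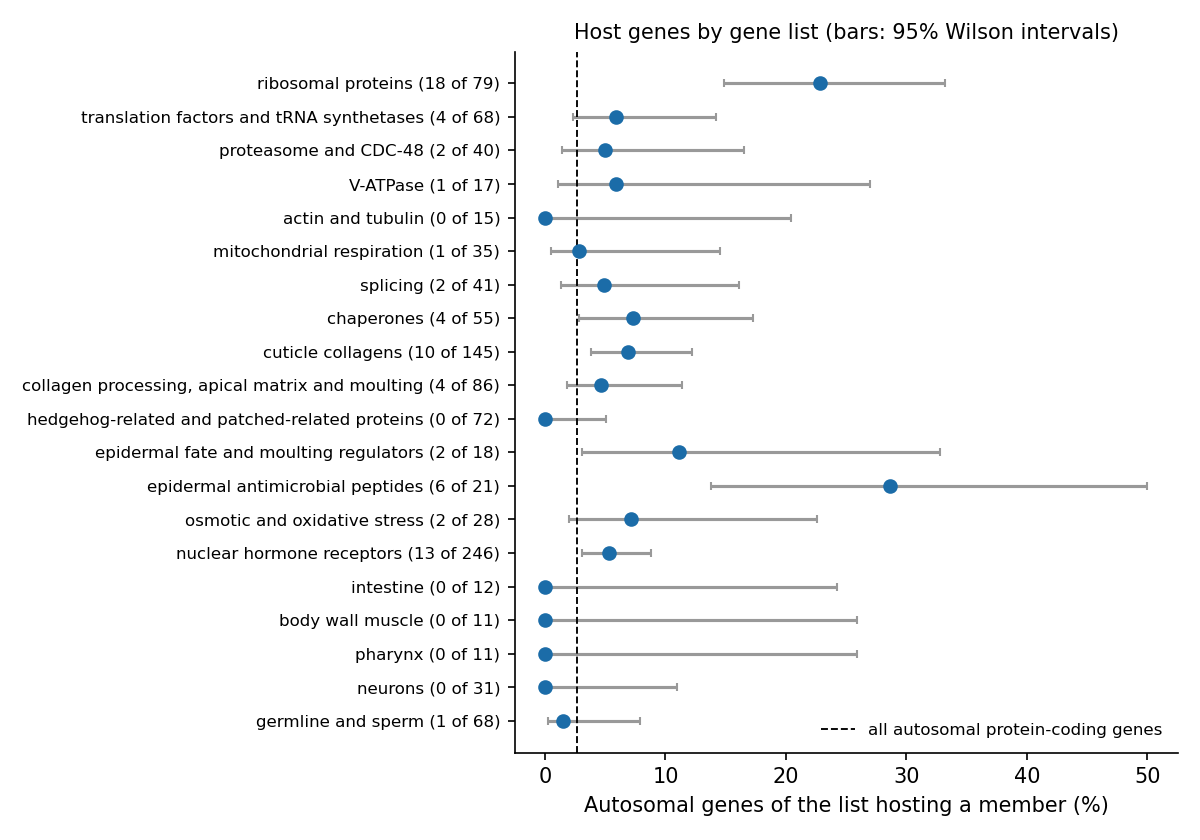
Share of the autosomal genes of each list that host a promoter region (x axis, %), with 95% Wilson intervals, and the share of all autosomal protein-coding genes, 2.62%, as a dashed line. Ribosomal proteins (22.8%) and epidermal antimicrobial peptides (28.6%) lie farthest to the right.

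The regions were spread unevenly over the chromosomes. Chromosome I held 114 of the 383 (29.8%), and 134 of its 2878 protein-coding genes (4.66%) were hosts. The share was 2.92% on chromosome III, 2.32% on chromosome II, 1.98% on chromosome IV and 1.92% on chromosome V. Other autosomal regions were likewise frequent on chromosome I, with 260 of 790 (32.9%). The bin of 1 Mb from 7 to 8 Mb on chromosome I had the most promoter regions, 21 over 214 genes, and 5 bins of the 78 with any region had 10 or more.

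Some summits also lay near genes for noncoding RNAs. Genes of the class annotated as ncRNA were within 200 bp of 53 promoter summits (13.8%) and of 63 other autosomal summits (7.97%). Genes for snRNAs were near 6 (1.57%) and 3 (0.380%), and tRNA genes near 2 and 3. These counts were not tested.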

How the data were processed

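ChIP-seq of ELT-3 was analysed in 2 biological replicates from deposited peak lists. Per the file headers of the deposited README texts, the authors made the replicate and pooled lists from alignments and a control, and the IDR list from those lists. Aligner, peak caller, IDR threshold and read depth: not given in the sources used here. Each region's signal is as the authors deposited it, with unknown scaling, and so is the −log10 q-value the authors gave, which was not used to rank. Only lists on ce11 were used, with WBcel235 sequence and Ensembl release 115 gene models. Coordinates are 1-based.

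The 1500 strongest pooled regions were taken by signal and placed by summit, in Python 3.11.15 with NumPy 2.4.6, SciPy 1.17.1 and Matplotlib 3.10.9. Motifs were searched on both strands within 50 bp of a summit. Summit windows were compared with windows centred 500 bp to the right by the two-sided exact McNemar test, and region classes by Fisher's exact test. Benjamini-Hochberg adjustment covered the 3 WGATAR comparisons, the 8 motifs or all 6-mers. The threshold was 0.05. The tests measure the spread between regions, which are not replicates of a condition and of which 18 overlap another. Intervals are 95% Wilson intervals. The code was checked on simulated data. The regions, the gene lists and most of the 8 motifs were chosen with earlier results of these data known.

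Genes named are the hosts of the 20 strongest regions, those within the first 150 ranks of both replicate lists, list members (the 8 strongest where a list had over 12), 5 regions on each side of the signal limit and the 5 with the most WGATAR. Alternatives were other numbers of regions, promoter windows, 5′ ends, windows, motifs, the IDR list, and each replicate alone. Leaving out chromosome I was added after seeing the data. A control experiment and ce10 lists were not used here.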

Additional observations from a re-analysis of the deposited data

How the results depend on the processing

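With 1 group of samples and no test between samples, no paired analysis was possible because nothing was compared across replicate numbers. Leaving out a replicate means applying the rule to the other replicate's list. Of 232 recomputed values, 177 kept their call at 0.05 or, for counts, stayed within a set factor. Of the others, 28 counts moved beyond that factor, 15 values lost and 11 gained their call, and 1 reversed. A tested value that kept its call could still change in size, as divergent minus 1 gene did from -20.7 to -12 points with replicate 1 alone. WGATAR at promoter summits minus the windows beside them (9.14 points) was 6.51 to 14.6 points with a replicate left out, 14.5 in the IDR list, 4.51 with the narrower promoter window, 4.70 with GATAA and 7.06 without chromosome I. Against other autosomal regions (-2.64 points) it was -7.19 to 0.811 points with a replicate left out, reversing without replicate 1 (0.811), and -18.9 in the IDR list. Divergent minus 1 gene (-20.7 points) was -12 to -1.32 with a replicate left out, -16.2 in the IDR list and -14.5 with the narrower window. Called motifs (4 of 8) numbered 0 to 5 with a replicate left out. Called 6-mers (26) numbered 0 to 59 with a replicate left out, 3 in the IDR list, 16 with the narrower window, 40 with the 5′ ends of all transcripts, 5 in windows reaching 25 bp from the summit, 83 in windows reaching 100 bp and 12 without chromosome I. The regions (383) numbered 83 in the IDR list. The cause of these changes was not tested. The IDR list, the narrower window and the set without chromosome I also held fewer regions, and the part of that in the changes was not tested. Depth is unknown, so its limit on weak regions could not be set.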
